A study of Mus musculus with 24 samples.

Results

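The clustered replication-dependent histone genes were examined in mouse embryonic stem (ES) cells of 6 genotypes. Members were all gene entries whose symbol begins with Hist1h, Hist2h, Hist3h or Hist4h, which gave 70 of 37310 entries. The Hist1 cluster on chromosome 13 held 56 of them, Hist2 on chromosome 3 held 10, Hist3 on chromosome 11 held 3 and Hist4 on chromosome 6 held 1. By histone type there were 6 H1, 20 H2a, 18 H2b, 12 H3 and 13 H4 genes, and 1 pseudogene (Hist3h2bb-ps). Cells were wild type (WT) or lacked Smchd1 (Smchd1 KO), Dux (Dux KO) or both of these genes (Double KO). A further pair of genotypes lacked the Tet genes, either alone (Tet TKO) or together with Smchd1 (quad KO). Each genotype had 3 biological replicates. All cells were grown without feeder cells on gelatin in medium with serum and LIF, the cytokine that holds ES cells undifferentiated. No strain, sex, passage or clone was stated in the sources used here, so a genotype may rest on 1 clone. RNA was total RNA from whole cells, and ribosomal RNA was removed by RiboErase, so RNA without a poly(A) tail could enter the libraries.

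Replication-dependent histone genes supply the core histones H2A, H2B, H3 and H4 and the linker histone H1 that package newly made DNA in S phase. Their mRNAs carry no poly(A) tail and end in a conserved stem-loop, which is bound by the stem-loop binding protein encoded by Slbp. Transcription is organised in the histone locus body by NPAT, a substrate of cyclin E with CDK2, and the U7 small nuclear ribonucleoprotein with LSM10 and LSM11 takes part in cutting the transcript. SMCHD1 acts in gene silencing on chromatin, DUX is a transcription factor of the early embryo, and TET enzymes oxidise 5-methylcytosine.

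The 3' stem-loop is shown for 6 members that the comparisons below turn on, because it is what sets these transcripts apart from other mRNA. Capitals mark the histone stem-loop, and 5 transcript bases are given on each side.
Hist2h4: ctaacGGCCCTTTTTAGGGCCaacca
Hist2h2ac: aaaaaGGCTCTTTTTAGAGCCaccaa
Hist1h4a: ccaaaGGCCCTTCTCAGGGCCgccca
Hist1h4b: caaaaGGTCCTTTTCAGGACCactca
Hist1h4c: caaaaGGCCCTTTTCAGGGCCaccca
Hist2h3c1: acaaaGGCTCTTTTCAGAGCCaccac
A stem-loop of this kind was found in the GENCODE M21 transcripts of 46 of the 70 members and of 95 of all 55450 genes, a share of 0.171%. The commonest form among H2a, H2b and H3 genes was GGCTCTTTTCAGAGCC, with 10, 8 and 5 members. Among H4 genes it was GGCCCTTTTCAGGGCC, with 7 members. An annotated transcript that stops short of the stem-loop cannot show it.

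Promoters were matched in RefSeq (build GRCm38.p6) for 62 members, which shared 61 different windows from 250 bases before to 50 bases after the annotated start. The promoters below belong to an H2a gene that fell in both Smchd1 KO and Dux KO (Hist2h2ac), an H4 gene that fell in Dux KO, Double KO and quad KO (Hist1h4b), and the member that rose in quad KO (Hist1h2ai). Capitals mark TATAAA, the TATA box. Capitals also mark CCAAT, the CCAAT box. The octamer ATTTGCAT is in capitals too. Both strands were searched, and overlapping matches of different motifs were each counted. Hist2h2ac lies at chr3:96220831-96221130 on the minus strand, Hist1h4b at chr13:23756687-23756986 on the plus strand and Hist1h2ai at chr13:21716162-21716461 on the plus strand.
Hist2h2ac: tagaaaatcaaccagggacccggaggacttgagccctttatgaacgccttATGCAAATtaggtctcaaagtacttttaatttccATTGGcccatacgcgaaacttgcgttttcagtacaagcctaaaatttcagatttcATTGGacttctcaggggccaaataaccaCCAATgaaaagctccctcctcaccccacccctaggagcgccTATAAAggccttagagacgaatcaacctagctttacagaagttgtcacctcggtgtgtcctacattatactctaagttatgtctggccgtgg
Hist1h4b: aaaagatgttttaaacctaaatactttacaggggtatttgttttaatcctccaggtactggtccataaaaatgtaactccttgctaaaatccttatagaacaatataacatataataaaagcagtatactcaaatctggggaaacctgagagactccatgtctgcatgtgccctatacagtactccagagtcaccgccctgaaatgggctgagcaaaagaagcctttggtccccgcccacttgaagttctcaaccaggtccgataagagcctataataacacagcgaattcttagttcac
Hist1h2ai: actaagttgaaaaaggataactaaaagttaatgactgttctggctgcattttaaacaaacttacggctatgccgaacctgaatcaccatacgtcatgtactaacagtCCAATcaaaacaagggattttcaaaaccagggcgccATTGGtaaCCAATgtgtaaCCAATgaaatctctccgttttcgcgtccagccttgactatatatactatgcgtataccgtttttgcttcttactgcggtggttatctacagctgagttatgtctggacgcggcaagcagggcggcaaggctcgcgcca
CCAAT was present in all 6 H1, 17 H2a, 16 H2b and 10 H3 promoters but in 3 of 12 H4 promoters, against 37.4% of all 32851 promoters in the table. The octamer was found in 7 H2a and 6 H2b promoters and in none of the H1, H3 or H4 promoters, against 1.74% of all promoters. TATAAA was in 57.4% of the members' promoters and in 13.6% of all. A match is a description of the letters in the window.

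Values are normalised read counts named CPM (counts per 1e6 counts). They stand in separately scaled tables, the second of which holds Tet TKO and quad KO. Libraries of the first table held 11.4 to 74.4 times 1e6 gene reads, and those of the second 27.3 to 34.6 times 1e6. The WT level of Smchd1 was 203 to 207 CPM, and Smchd1 KO cells had 46.2 to 76.5 CPM, a 3.46-fold fall (limma, adjusted p = 0.000395). Double KO cells had 71.0 to 87.9 CPM. Quad KO cells had 18.1, 12.2 and 40.02 CPM, a 7.31-fold fall from 151 to 161 CPM in Tet TKO (limma, adjusted p = 0.000827). Dux was listed at 0 to 0.847 CPM in every sample of all 6 genotypes, too low for its level to check the labels. In Tet TKO, the levels of Tet1, Tet2 and Tet3 were 270.2 to 276, 329 to 341 and 43.0 to 46.0 CPM. The second table has no control with intact Tet genes in use here, so these levels do not check the Tet label. The ES cell markers Pou5f1 and Sox2 were present in every sample, at no less than 364 and 224 CPM. Nanog, a further marker, ran from 252 to 276 CPM in Tet TKO and was at 61.5, 65.0 and 30.8 CPM in quad KO. The noise ratio (spread over counting error) between WT replicates was 1.25 to 3.04, beside 2.25 to 2.80 between repeat runs of 1 WT replicate. The p-values measure the spread between samples, which may in part be technical. Ratios between Smchd1 KO replicates ran from 3.14 up to 12.8. Dux KO replicates had no ratio under 15.7 and Double KO replicates none under 16.7, with highs of 30.0 and 30.4. Each gene had a single spread, shared by all genotypes of a table. The p-values of Smchd1 KO against WT thus also rest on the spread within Dux KO and Double KO. Smchd1 KO, Dux KO and Double KO were compared with the same WT samples, so those comparisons are not independent.

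Of the 70 members, 63 passed the filter of at least 0.5 CPM in at least 3 samples in each table. The other members were Hist2h2aa1, Hist2h2aa2, Hist1h2bq, Hist1h2br, Hist1h2ao, Hist1h2ap and Hist1h4m. Many members are near copies of each other: 33 of the 70 share over 50% of their 50-base words with another gene, and 15 share under 20%. Reads of the former may have been lost or divided between copies, and the counting rule was not given in the sources used here. In bulk samples, fewer cells in S phase and less histone RNA per cell cannot be told apart.

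Summed over all 70 members, WT had 10131, 10514 and 10520.0 CPM in replicates 1 to 3. H1 genes took 31.5% ± 0.217 (SD, n = 3) of these reads, H4 genes 27.5%, H2b 19.6%, H3 13.1% and H2a 8.45%. The Hist1 cluster took 90.8% and Hist2 took 6.77%. Per kilobase of GENCODE M21 exon length, which all 63 tested members have, the median WT level was 365 CPM per kb over 12 H4 genes, 344 over 6 H1 genes, 159.6 over 12 H3 genes, 108 over 16 H2b genes and 73.5 over 16 H2a genes. The single pseudogene was at 5.90 CPM per kb. The highest was Hist1h1a, which encodes a linker histone, at 1090.5 ± 45.3 CPM per kb (SD, n = 3). These ranks and medians depend on the annotated lengths. Hist1h1a is annotated at 741 bases without a stem-loop. Hist1h1d, at 111 CPM per kb, is annotated at 7425 bases, 4884 of them after its stem-loop.

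Clustered histone transcripts stood lower in Dux KO than in WT across the 4 core types and H1, and 4 H4 genes and 1 H2a gene passed the test. Dux KO had 5705, 6781 and 8628 CPM summed over the members. All 3 values lay below the lowest WT sample, and replicate 3 was much nearer to WT than the others. Of the 63 tested members, 61 had a log2 change under 0 in the comparison of Dux KO with WT, against 52.7% of all 16200 genes tested. Their median log2 change was -0.62, beside -0.03 over all genes. Only 5 of 63 passed at an adjusted p under 0.05 (limma, adjusted over all genes), all lower, against 3.98% of all genes called in either direction and 2.35% called lower and 1.63% higher. In 47 members every Dux KO sample lay below every WT sample, against 23.1% of all genes.

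**Figure D1:**
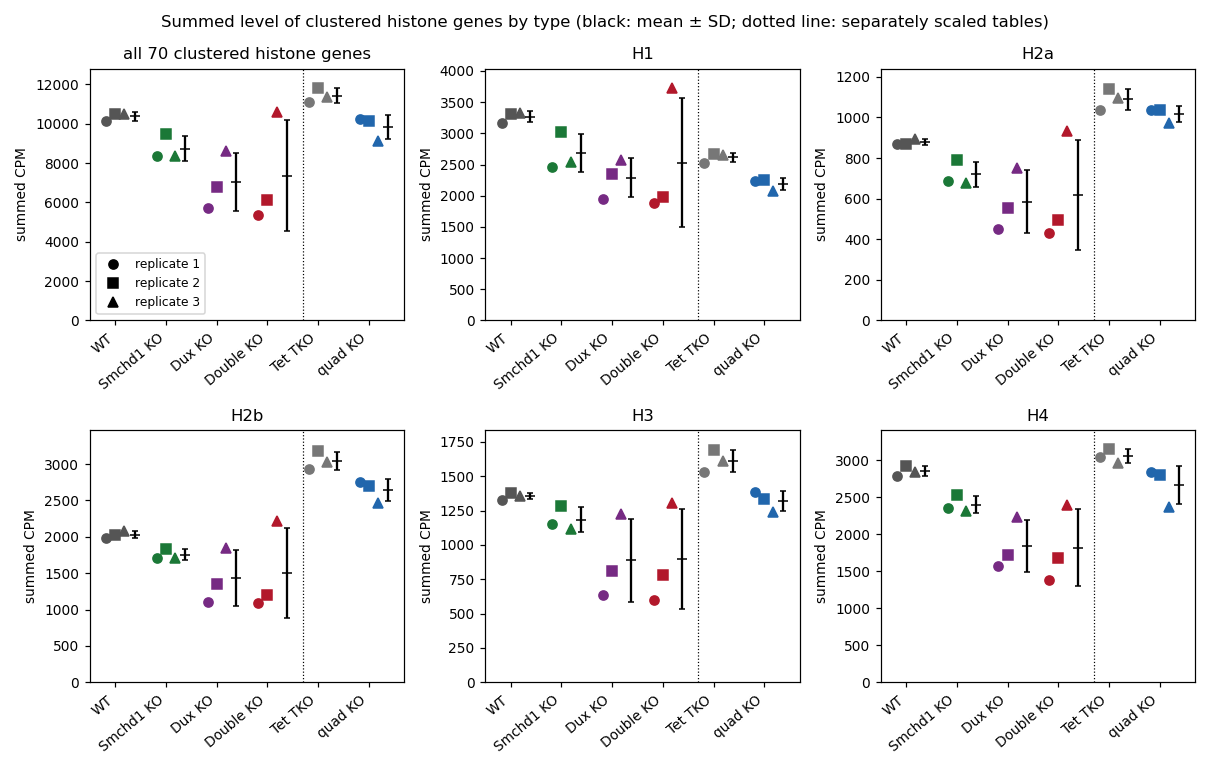
Summed level of the clustered histone genes, in CPM, in each of 18 samples (vertical axes, from 0), for all 70 genes and for each histone type. Marker shapes give the replicate, black bars the mean ± SD of 3 replicates, and the dotted line divides separately scaled tables. Replicates 1 and 2 of Dux KO and Double KO lie at 5383 to 6781 CPM for all genes, and their replicates 3 at 8628 and 10575 CPM.

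The 5 members that fell in Dux KO were Hist1h4a, Hist1h4b, Hist1h4c, Hist1h4j and Hist2h2ac. In WT, Hist1h4a had 255, 261 and 257 CPM, and its Dux KO values were 145, 114 and 144 CPM. It fell 1.93-fold (log2 change -0.95, standard error 0.20, adjusted p = 0.0315). Its groups did not overlap, and Dux KO replicate 3 was as low as replicate 1. Hist1h4c went from 242, 250.0 and 239.8 CPM to 139.9, 122 and 152 CPM, a 1.77-fold fall (adjusted p = 0.0315). Hist1h4j went from 82.3, 84.9 and 82.3 CPM to 31.8, 44.2 and 46.8 CPM, a 2.05-fold fall (adjusted p = 0.0381). These H4 genes encode the same histone from separate loci, and in each of them all Dux KO samples lay below WT. Hist1h4b went from 167, 171 and 177 CPM to 89.3, 92.0 and 119 CPM and fell 1.72-fold (adjusted p = 0.0411). Hist2h2ac, an H2a gene of the Hist2 cluster, went from 73.0, 71.1 and 77.5 CPM to 34.7, 21.9 and 54.4 CPM and fell 2.12-fold (adjusted p = 0.0441). Replicate 3 of Dux KO was the highest of the group for Hist2h2ac, at a level still below WT.

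By type, 4 of 12 tested H4 genes and 1 of 16 H2a genes fell, and none of the 6 H1, 16 H2b or 12 H3 genes passed. Of all genes, 2.35% fell. Median log2 changes were -0.57 for H1, -0.71 for H2a, -0.58 for H2b, -0.70 for H3 and -0.67 for H4, and the differences between types were not tested. Over the 63 members, the median SD on the log2 scale within Dux KO was 0.40, beside 0.30 over all genes. Replicate 3 was the highest Dux KO sample in 50 of 63 members and in 38% of all genes. Without Dux KO replicate 3, 28 of 63 members passed, against 17.2% of all genes. Without any 1 of the WT replicates none passed, against 0.0123% to 0.0988% of all genes. Without Dux KO replicate 2 none passed either, against 0.586% of all genes.

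In Double KO the members again had a median below WT, with 1 replicate apart. Double KO had 5383, 6148 and 10575 CPM summed over the members, so replicates 1 and 2 lay far below WT and replicate 3 lay above all of WT. The median log2 change from WT was -0.60 (-0.04 over all genes), with 61 of 63 members under 0, against 54.8% of all genes. Only Hist1h4b passed, 1 of 63 against 1.57% of all genes called in either direction, 0.889% lower and 0.685% higher. It had 75.7, 85.8 and 133 CPM in Double KO, all below the 167 to 177 CPM of WT, a 1.80-fold fall (limma, adjusted p = 0.0445). All 12 tested H4 genes had every Double KO sample below every WT sample, which held for 28 of the 63 members and 21% of all genes. Without Double KO replicate 3, 48 members passed, against 18.6% of all genes, and without any other replicate of Double KO or WT none did, against 0.0123% to 0.815% of all genes.

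**Figure D2:**
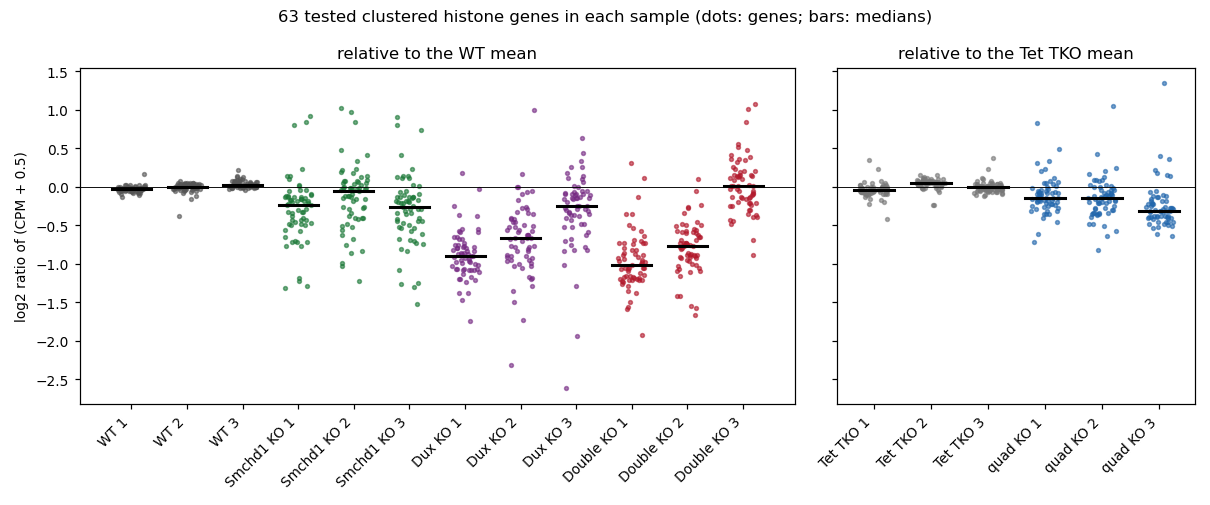
Level of each of the 63 tested clustered histone genes in every sample, as the log2 ratio of (CPM + 0.5) to the mean of WT (left) or of Tet TKO (right); dots are genes and bars are medians. Medians are -0.90 and -0.67 in Dux KO replicates 1 and 2, -0.25 in replicate 3, -1.02 and -0.77 in Double KO replicates 1 and 2, and 0.01 in replicate 3.

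Sample by sample, 61 of 63 members in Dux KO replicate 1 and 56 in replicate 2 lay below all 3 WT samples, against 50.2% and 47.5% of all genes. In replicate 3 it was 50 members, against 46.4% of all genes. In Double KO the numbers were 61, 61 and 28 members, against 50.5%, 47.1% and 48.3% of all genes. Replicate 3 of Double KO thus had no larger share of members below WT (44.4%) than of genes in general. Replicate 3 was the highest Double KO sample in 60 of 63 members and in 37.5% of all genes. The direct comparison of Double KO with Dux KO found no member that passed, against 0.0123% of all genes called in limma, 0.00617% in each direction. In 1 member the groups did not overlap with Double KO lower, and in none with Double KO higher, against 3.1% and 3.05% of all genes. At an unadjusted p under 0.05, 2 members differed, edgeR called none and DESeq2 called 1. The median log2 change between them was 0.02, with 28 of 63 under 0 beside 52.9% of all genes.

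The members that fell in Smchd1 KO were 2 genes of the Hist2 cluster. Summed over its 10 genes, WT had 684, 701 and 726 CPM for Hist2, and Smchd1 KO had 401, 389.7 and 397 CPM. The groups were far apart and each was tight, with SDs of 21.4 and 5.80 CPM. All 70 members together had 8374, 9470.3 and 8361 CPM in Smchd1 KO, also all below WT, a difference of -15.9%, beside -43.8% for Hist2. Of the 63 tested members, 2 passed, both lower, against 0.889% of all genes in either direction, 0.241% lower and 0.648% higher. These counts use the spread shared with Dux KO and Double KO. More members passed in a fit of WT and Smchd1 KO alone, which called 42.3% of all genes. The median log2 change was -0.18 over all tested members (0.00 over all genes), -0.18 in Hist1 and -0.63 in Hist2, and the difference between clusters was not tested. Of all tested members, 52 had a log2 change under 0 (49.6% of all genes), and 32 had groups that did not overlap with Smchd1 KO lower (29.6% of all genes).

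Hist2h4 (ENSMUSG00000091405.1), the H4 gene of the Hist2 cluster, went from 131, 134 and 128 CPM in WT to 52.2, 65.9 and 54.1 CPM. It fell 2.28-fold (log2 change -1.19, standard error 0.19, limma, adjusted p = 0.0115). The highest Smchd1 KO sample was at about the level of the lowest Dux KO sample, and every one was below WT. Only 1.01% of its 50-base words occur in another gene. Hist2h2ac (ENSMUSG00000068855.3) had 29.9, 31.4 and 29.7 CPM in Smchd1 KO against 71.1 to 77.5 CPM in WT, a 2.41-fold fall (adjusted p = 0.0433). Its Smchd1 KO samples were nearly equal and far below WT.

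The other tested Hist2 genes did not pass, and they did not share a direction. Hist2h2bb, an H2b gene, had 267, 239.7 and 261 CPM in Smchd1 KO and 419 to 454 CPM in WT (log2 change -0.77, adjusted p = 0.115). Hist2h3b and Hist2h2ab also had all Smchd1 KO samples below WT, at log2 changes of -0.72 and -0.54. Hist2h3c1 and Hist2h3c2, H3 genes of the same cluster, lay the other way. Hist2h3c1 had 12.1, 13.9 and 12.7 CPM in Smchd1 KO and 5.83 to 7.21 CPM in WT, a log2 change of 0.93 (adjusted p = 0.252). Hist2h3c2 had 3.19, 3.65 and 3.17 CPM against 1.12 to 1.96 CPM (log2 change 0.86). Both groups of values were clear of WT, but these genes have few reads and share 77.6% and 63.5% of their words with other genes. Hist2h4 passed under 13 of 18 other settings and Hist2h2ac under 7 of 18, and without any 1 replicate other than Smchd1 KO replicate 2, neither passed. All genes called then came to 0.315% to 0.488%.

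**Figure D3:**
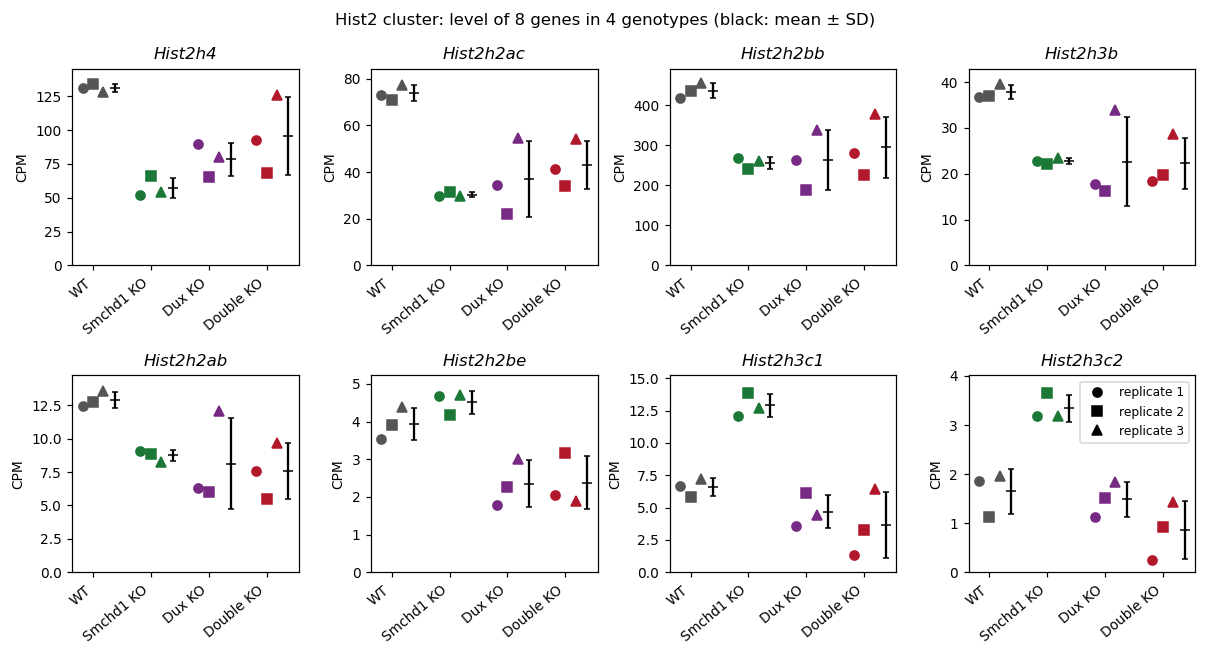
Level in CPM (vertical axes, from 0) of 8 Hist2 genes in the 4 genotypes of the first table; marker shapes give the replicate and black bars the mean ± SD of 3. Hist2h4 and Hist2h2ac are lowest on average in Smchd1 KO (57.4 and 30.3 CPM), whereas Hist2h3c1 and Hist2h3c2 are highest there (12.9 and 3.34 CPM).

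Those H3 genes were the members that passed between Double KO and Smchd1 KO. Hist2h3c1 had 1.36, 3.30 and 6.42 CPM in Double KO, below every Smchd1 KO sample, a 3.66-fold fall (limma, adjusted p = 0.0213). Hist2h3c2 had 0.248, 0.917 and 1.43 CPM and fell 3.02-fold (adjusted p = 0.0206). Thus 2 of 63 members passed, both lower, against 4.38% of all genes in either direction 2.98% lower and 1.4% higher. The median log2 change of the members was -0.38, with 51 of 63 under 0 (53.4% of all genes). Without Double KO replicate 3, 31 members passed, against 15.0% of all genes. It was 6 without Double KO replicate 2, against 8.56% of all genes. Without any 1 of the Smchd1 KO replicates none passed, against 0.611% to 1.02% of all genes.

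The difference between the effect of Smchd1 loss in Dux KO cells (Double KO against Dux KO) and in WT cells was tested as an interaction. Hist2h4 was the single member that passed, 1 of 63 against 0.512% of all genes, 0.154% higher and 0.358% lower. It had 89.7, 65.4 and 79.9 CPM in Dux KO and 92.9, 68.5 and 126 CPM in Double KO. Its log2 change with Smchd1 loss was thus 0.26 in Dux KO cells, where the groups overlapped, and -1.19 in WT cells, a difference of 1.45 (standard error 0.27, limma, adjusted p = 0.0398). All Dux KO samples were below WT for this gene (log2 change -0.75, adjusted p = 0.0506). It passed under 10 of 23 other settings. It did not pass without any 1 of the WT or Smchd1 KO replicates, without Dux KO replicate 2 or without Double KO replicate 1. The count of members ran from 0 to 6 with 1 replicate left out, and was 3 without Dux KO replicate 1 (4.15% of all genes) or replicate 3 (1.08%) and 6 without Double KO replicate 2 (7.43%).

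Between Tet TKO and quad KO many Hist1 genes fell by small amounts. The members summed to 11093, 11834 and 11351 CPM in Tet TKO and 10257, 10125 and 9125 CPM in quad KO. Every quad KO sample was below every Tet TKO sample, and the means differed by -13.9%. Of 63 tested members 32 fell and 1 rose, against 37.7% of all 14920 genes called, 20.6% lower and 17.1% higher. The median log2 change was -0.19, beside -0.01 over all genes, and 55 of 63 members were under 0 (51.2% of all genes). In 37 members every quad KO sample was below every Tet TKO sample, against 28.2% of all genes. Of the 63 members, a larger share fell than of all genes. Without any 1 of the replicates, between 20 and 38 members passed. It was 20 without Tet TKO replicate 2 and 21 without Tet TKO replicate 3, against 23.7% and 24.9% of all genes.

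**Figure D4:**
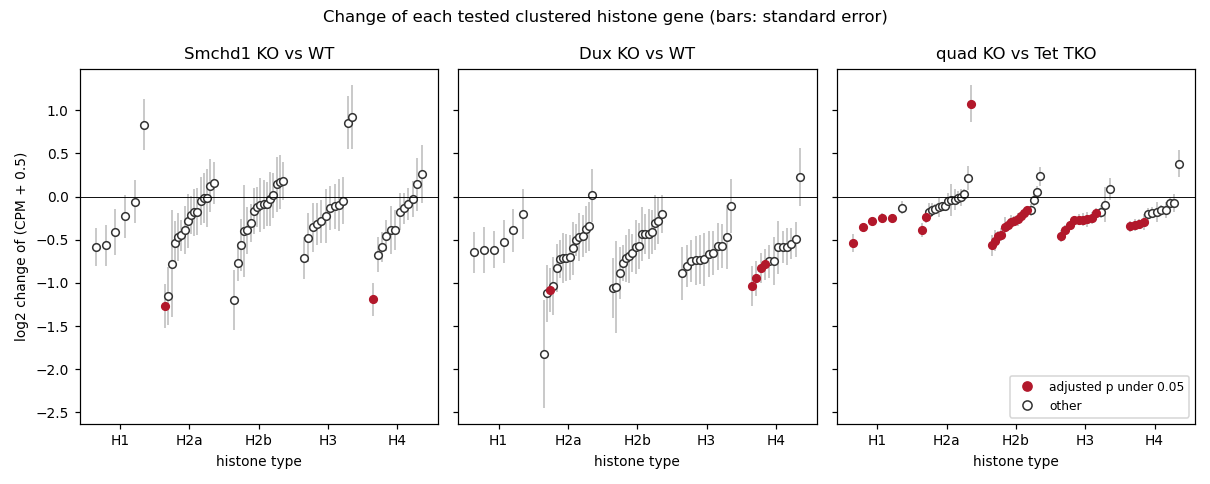
Log2 change of each tested member (vertical axes; bars are standard errors), by histone type, for Smchd1 KO against WT, Dux KO against WT and quad KO against Tet TKO; filled points passed at an adjusted p under 0.05. Standard errors are smaller in the comparison of quad KO with Tet TKO, where 33 members passed, than in the others, where 2 and 5 passed.

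By type, 5 of 6 H1 genes, 12 of 16 H2b genes and 9 of 12 H3 genes fell in quad KO. So did 4 of 12 H4 genes and 2 of 16 H2a genes, beside 20.6% of all genes. The share of H2a genes that fell was below that of all genes, and 1 H2a gene rose. Hist1h1c, a linker histone gene, had 562, 592 and 575 CPM in Tet TKO and 462, 455 and 442 CPM in quad KO, and fell 1.27-fold (log2 change -0.35, standard error 0.04, limma, adjusted p = 0.000363). Hist1h1b had 414, 428 and 422 CPM and 352, 349 and 338 CPM and fell 1.22-fold (adjusted p = 0.000717). Replicates were tight in both genes, and the groups did not overlap. Hist1h2bh, an H2b gene, had 146, 162 and 156 CPM in Tet TKO and 117, 104 and 118 CPM in quad KO, a 1.37-fold fall (adjusted p = 0.00120). Hist1h3a, an H3 gene, had 108, 114 and 109 CPM and 86.7, 83.8 and 72.0 CPM, also a 1.37-fold fall (adjusted p = 0.00230). The other members with the smallest p-values were Hist1h2bn, Hist1h3f, Hist1h3c, Hist1h1d, Hist1h4b and Hist1h2ba, at log2 changes of -0.44 to -0.25. These falls are small in size and clear of the spread between replicates. All 10 members passed under each of 16 other settings, which called 21.5% to 72.3% of all genes. The 10 members were picked by their p-values in this comparison and the settings reuse its samples, so this is no independent check.

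In quad KO the Hist2 sum did not move apart from Tet TKO. It was 741, 776 and 775 CPM in Tet TKO and 796, 814 and 682 CPM in quad KO, and the groups overlapped. Hist2h4 had 149, 151 and 146 CPM in Tet TKO and 152, 157 and 118 CPM in quad KO, and Hist2h2ac had 173, 194 and 193 CPM and 195, 199 and 177 CPM. Neither passed, and their groups overlapped. Only Hist2h2be and Hist2h3b of the 8 tested Hist2 genes fell, at log2 changes of -0.51 and -0.19. Of all genes, 20.6% fell. Hist2h2be was low, at 0.883 CPM per kb of exon in Tet TKO. Whether the Smchd1 effect on Hist2 genes differs between the WT and the Tet TKO background was not tested, because the tables were scaled separately.

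The single member that rose in quad KO was Hist1h2ai, an H2a gene named here after its values were seen. It had 4.51, 6.40 and 8.16 CPM in Tet TKO and 11.4, 13.4 and 16.5 CPM in quad KO, a 2.11-fold rise (limma, adjusted p = 0.00595). Its promoter window overlaps that of Hist1h2bl on the opposite strand by 272 bases, and Hist1h2bl fell from 207, 229.9 and 221 CPM to 176, 172 and 193 CPM (log2 change -0.28, adjusted p = 0.00744). The listed levels of these neighbours moved in opposite directions. Of the words of Hist1h2ai and Hist1h2bl, 90.1% and 82.8% occur in other genes, so the reads of both are uncertain. Of the 9 such H2a and H2b pairs, 8 had both genes tested, and in the other 7 both log2 changes were under 0.

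Linker histone genes were examined one by one because they are few. In Dux KO, Hist1h1a had 512, 538 and 525 CPM against 776 to 843 CPM in WT (log2 change -0.62, adjusted p = 0.165), and all 3 samples were close to each other. In Double KO it had 436, 426 and 1011 CPM, so replicate 3 alone exceeded WT. Hist1h1c had 432, 618 and 771 CPM in Dux KO against 813 to 879.6 CPM in WT, with replicate 3 nearest to WT. Hist1h1e had 168, 186 and 205 CPM in Smchd1 KO and 161 to 183 CPM in Dux KO against 268 to 283 CPM in WT, clear of WT in both, at adjusted p-values of 0.263 and 0.119. Hist1h1d and Hist1h1b did not pass outside quad KO, at log2 changes between -0.62 and 0.18 in the 6 comparisons of the first table other than Hist1h1b's interaction value of 0.76. No H1 gene passed in that table.

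Germ-line members were low throughout. Hist1h1t, the testis linker histone gene, had 17.1, 16.2 and 15.0 CPM in Smchd1 KO against 8.72 to 8.88 CPM in WT (log2 change 0.83, adjusted p = 0.206). In the other table it had 10.5 to 10.9 CPM in Tet TKO and 6.35, 7.49 and 7.90 CPM in quad KO, a 1.45-fold fall (adjusted p = 0.00474). Its samples were thus above the control in one background and below it in the other. Hist1h2ba, which encodes the testis H2B variant, fell 1.36-fold in quad KO (adjusted p = 0.00374), from 13.2 to 13.6 CPM to 9.33 to 10.4 CPM. Hist1h2aa, the H2a gene beside it, had 5.14, 2.75 and 21.2 CPM in Double KO against 9.81 ± 0.191 CPM (SD, n = 3) in WT, and Hist1h2ba had 4.76, 2.02 and 12.95 CPM. In both genes Double KO replicate 3 was the highest sample of the table.

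Hist4 holds a single member, Hist4h4, on chromosome 6. WT had 213, 233 and 228 CPM of Hist4h4. Smchd1 KO had 182, 139.7 and 198 CPM, Dux KO had 113, 87.8 and 241 CPM, and Double KO had 135, 157 and 161 CPM. In the second table, Tet TKO had 94.2, 99.8 and 93.4 CPM and quad KO had 89.2, 87.8 and 76.0 CPM. All quad KO samples were below Tet TKO (log2 change -0.19, limma, adjusted p = 0.0637), and the gene passed in no comparison. The median log2 ratio to WT of other genes on chromosome 6 was -0.45 in Smchd1 KO replicate 2, -0.23 and -0.43 in Dux KO replicates 1 and 2, -0.02 in Dux KO replicate 3 and -0.49 in Double KO replicate 3. The samples with low chromosome 6 medians in Smchd1 KO and Dux KO were those with low Hist4h4, whereas Double KO replicate 3 was the highest Double KO sample. The chromosome 6 medians of quad KO, against Tet TKO, were -0.21, -0.28 and -0.27. The part of the chromosome in the gene's level was not tested. On chromosomes 13 and 3, which carry Hist1 and Hist2, the medians of other genes lay between -0.13 and 0.09 in every sample of both tables.

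Genes that make or process histone mRNA were listed as the members' machinery. Of 37 tested machinery genes, 3 fell and none rose in Dux KO (2.35% of all genes fell): Slbp, Ccne1 and Eri1. Slbp went from 138, 139.5 and 139 CPM in WT to 87.4, 88.5 and 101 CPM (log2 change -0.59, standard error 0.10, limma, adjusted p = 0.0174). All Dux KO samples, replicate 3 included, were well below WT. Ccne1, which encodes cyclin E1, fell by 0.80 on the log2 scale (adjusted p = 0.0449) and Eri1, an exonuclease of histone mRNA, by 0.62 (adjusted p = 0.0467). Slbp passed under 14 of 19 other settings, Ccne1 under 9 and Eri1 under 8. The median of the list was -0.26. None passed in Smchd1 KO or Double KO against WT, where 30 and 27 of 37 had a log2 change under 0. In quad KO 10 of 37 fell and 4 rose, beside 20.6% of all genes lower and 17.1% higher, with E2f1 (log2 change -0.64), Ccne1 (-0.32), Zfp473 (-0.45) and Slbp (-0.16) among those that fell. Npat and Casp8ap2, components of the histone locus body, passed in no comparison, with log2 changes of Npat between -0.05 and 0.10. Lsm10 and Lsm11 did not pass either.

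Replication-independent histone genes, whose mRNAs are polyadenylated, offer a view of histone transcripts of the other kind. In Dux KO 4 of 11 tested fell, beside 2.35% of all genes: H1f0, H2afz, H1fx and H2afj, at log2 changes of -0.59, -0.87, -0.63 and -0.66. The median of the 11 was -0.53, beside -0.62 for the clustered members. In Double KO against WT 2 of 11 fell (0.889% of all genes), and in Smchd1 KO none passed. In quad KO 6 of 11 fell (20.6% of all genes), H1f0 by 0.89 on the log2 scale (limma, adjusted p = 0.000232). Of 22 histone chaperone genes, 2 fell in Dux KO and none passed in Smchd1 KO.

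Other gene lists were measured in the same samples. Of 38 S phase genes 4 fell in Dux KO, 1 fell in Double KO against WT, none passed in Smchd1 KO and 25 fell in quad KO. The shares of all genes that fell were 2.35%, 0.889%, 0.241% and 20.6% in the same order. Their summed level ran from 7405 to 7517 CPM in WT. Smchd1 KO lay at 6718 to 7042 CPM, Dux KO at 5947 to 6484 CPM, and Double KO at 5706, 5856 and 7514 CPM. The second table had 7963 to 8103 CPM for Tet TKO, and quad KO lay lower at 6502 to 6923 CPM. Replicate 3 of Double KO was thus again at the WT level. Of 25 genes of G2 and mitosis none passed in Dux KO or Smchd1 KO, 1 fell in Double KO against WT and 9 fell in quad KO, beside the same shares of all genes. Malat1, a nuclear noncoding RNA that ends without a poly(A) tail, had 4368 to 4649 CPM in WT and 4654, 5377 and 6556 CPM in Smchd1 KO (log2 change 0.28, limma, adjusted p = 0.675). Dux KO had 9374, 12009.5 and 8709 CPM (limma, adjusted p = 0.0514), and Double KO had 10875, 12473 and 5387 CPM (adjusted p = 0.0874). In quad KO it rose, from 2347 to 2489.9 CPM in Tet TKO to 3504 to 4383 CPM (log2 change 0.70, adjusted p = 0.000441). Of 9 ES cell markers 6 fell and 2 rose in quad KO, beside 20.6% of all genes lower and 17.1% higher. None passed in Dux KO, Smchd1 KO or Double KO against WT. In Double KO all 9 had a log2 change under 0 (median -0.50), and their sum of 2346, 2716 and 3535 CPM lay below the 3742 to 3787 CPM of WT. Markers of other cell types also moved in quad KO. Of those tested, 4 of 5 for mesoderm and 4 of 8 for fibroblast rose, and none fell. For ectoderm 3 of 5 rose and 1 fell, and for trophoblast 4 of 6 rose and 1 fell. For endoderm 3 of 7 fell and 2 rose. Trophoblast markers summed to 219.8 to 227 CPM in Tet TKO, and quad KO had 272 to 517 CPM. The same sum was 64.7 to 69.5 CPM in WT. It was 85.6, 101 and 179.7 CPM in Smchd1 KO, 31.6, 23.5 and 208 CPM in Dux KO, and 728, 143 and 154 CPM in Double KO. Dux KO replicates 1 and 2 were below WT, and all other samples of these 3 genotypes were above it. The part of these measures in the members' levels was not tested.

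The 15 members that share under 20% of their words with other genes had median log2 changes of -0.39 in Smchd1 KO, -0.62 in Dux KO and -0.19 in quad KO. Of these 15, 1 fell in Smchd1 KO, 1 in Dux KO and 7 in quad KO. Of all genes, 0.241%, 2.35% and 20.6% fell in the same order. None of the 3 Hist3 genes passed in these comparisons, with median log2 changes of -0.10, -0.45 and 0.23.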

How the data were processed

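Per the submitters' processing notes, the tools were Trim Galore, STAR 2.5.1 and limma 3.38.2, and the mouse build was mm9. The counter, annotation and filters were not given in the sources used here. The authors deposited a normalized signal per gene, named CPM, in 2 tables of 37310 entries. Whole reads could be recovered from it: of values below 200 reads, 100% came within 0.1 of a whole read. Library totals differ, so the scale is an effective library size, set for each table. In the second table, 3 columns under the WT name matched no sample and were not used. Tet TKO and quad KO were not tested against WT.

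Technical runs of WT and Smchd1 KO (2 per replicate) were averaged. The 6 Smchd1 KO columns do not name their replicate and were joined in pairs by least noise, so their numbers are names only. A filter of 0.5 CPM or more in 3 or more samples kept 16200 and 14920 genes. Log2(CPM + 0.5) was fitted with limma 3.58.1 (R 4.3.3), with a mean for each genotype, jointly over each table, and an intensity trend. Tests are two-sided and Benjamini-Hochberg adjusted over all genes kept, at 0.05. Alternatives used edgeR 4.0.16 and DESeq2 1.42.0 on recovered reads, other pseudocounts and filters, scalings, blocks, weights and samples. On simulated data the fit was checked for recovery of known changes. The simulated spread beyond counting error was set alike for all genes and samples. The check therefore does not cover the wider spread within Dux KO and Double KO. Lists and members were chosen with earlier results of these data known. Members were named where they passed (at most 10 per comparison, by adjusted p), had most reads, were H1 genes, or lay in Hist2, Hist3 or Hist4. Of the list of noncoding RNA, 8 of 25 symbols were in the tables. GENCODE M21 gave chromosomes, lengths and stem-loops.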

Additional observations from a re-analysis of the deposited data

Results flagged for a closer look

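For Hist2h4, the effect of Smchd1 loss differed between Dux KO and WT cells by a test of the difference itself, by 1.45 on the log2 scale. For 3 further members, every sample of Smchd1 KO lay on one side of WT and every sample of quad KO on the opposite side of Tet TKO, and the difference between the backgrounds was not tested. Hist1h2ai, with 90.1% of its words in other genes, had log2 changes of -0.47 in Smchd1 KO and 1.08 in quad KO. Hist1h2bg, an H2b gene, had 0.14 and -0.22. Hist1h1t had 0.83 and -0.54.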

How the results depend on the processing

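The members' median log2 changes moved by less than the spread between replicates in all 132 alternatives. That spread is a wide measure, since Double KO samples had medians of -1.02, -0.77 and 0.01. Within it, medians crossed 0 with 1 replicate left out, from -0.30 to 0.23 in Double KO vs Dux KO and -0.08 to 0.47 in the interaction. Of 542 values of named genes under alternatives, 416 stayed past the threshold, 126 did not and none changed sign. Counts of members that passed were less stable (shares of all genes called are in brackets). Smchd1 KO vs WT (2) gave 1 with a pseudocount of 0.1 (0.691%), without a filter (0.679%) and with a filter of 2 CPM (0.54%). It also gave 1 with quantile scaling (0.679%) and from technical run 1 only (0.847%). It gave 5 with DESeq2 (6.68%), 36 in a fit of the 2 groups alone (42.3%) and 39 with array weights (57.4%). The fit of the 2 groups alone leaves the Dux KO and Double KO samples out of the spread. Dux KO vs WT (5) gave 0 without a filter (1.2%) and 2 with quantile normalization (2.12%). It gave 16 with DESeq2 (16.1%), 11 in a fit of the 2 groups (5.06%) and 50 with array weights (39.7%). Double KO vs WT (1) gave 0 with a pseudocount of 2 (1.07%), without a filter (0.64%) and with quantile normalization (0.938%). It also gave 0 with edgeR (3.43%) and in a fit of the 2 groups (1.62%). It gave 2 with chromosome medians centred (2.01%), 3 with run 1 alone (3.14%), 6 with DESeq2 (12.4%) and 47 with array weights (15.1%). Double KO vs Dux KO (0) gave 1 with DESeq2 (1.36%). Double KO vs Smchd1 KO (2) gave 4 with quantile normalization (5.14%), 7 with DESeq2 (15.2%), 29 with array weights (16.5%) and 0 in a fit of the 2 groups (0.747%). The interaction (1) gave 0 with a pseudocount of 0.1 (0.0556%), without a filter (0.249%) and with a filter of 2 CPM (0.0836%). It also gave 0 with edgeR (0.0432%) and with run 2 alone (0.294%). It gave 6 with DESeq2 (5.84%) and 12 with array weights (13.8%). Quad KO vs Tet TKO (33) gave 28 to 47, the highest with array weights (72.3%), whose estimate stopped short of its tolerance. The lowest share of all genes called there was 21.5%, without a filter. The causes were not tested.

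With 1 replicate left out, the counts ran from 0 to 1 in Smchd1 KO vs WT, 0 to 28 in Dux KO vs WT, 0 to 48 in Double KO vs WT, 0 to 1 in Double KO vs Dux KO, 0 to 31 in Double KO vs Smchd1 KO, 0 to 6 in the interaction and 20 to 38 in quad KO vs Tet TKO. In that order, shares of all genes called ran from 0.315% to 0.488%, 0.0123% to 17.2%, 0.0123% to 18.6% and 0% to 0.901% up to Double KO vs Dux KO. They were 0.611% to 15.0% in Double KO vs Smchd1 KO, 0% to 7.43% in the interaction and 23.7% to 51.2% in quad KO vs Tet TKO. The members' medians ran from -0.24 to -0.17, -0.82 to -0.43, -0.93 to -0.39, -0.30 to 0.23, -0.64 to -0.13, -0.08 to 0.47 and -0.24 to -0.13 in the same order.

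Same-numbered samples did not deviate together in every pair (correlations of -0.13 to 0.47). Some samples correlated best with their own number in the other genotype and others did not. Whether same-numbered samples share a batch therefore cannot be told. With a replicate block, 0 members passed in Dux KO vs WT and in Double KO vs WT, 0 in Double KO vs Dux KO and 32 in quad KO vs Tet TKO. Of all genes, 0.198%, 0.154%, 0.0123% and 32.9% passed in the same order. No paired analysis was possible because the Smchd1 KO columns carry no replicate number, for comparisons with Smchd1 KO and the interaction. Genes near 1 CPM, such as Hist2h3c2, rest on few reads.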
